A study of Rattus norvegicus with 17 samples.

Results

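The genes described here were found at 1 of 2 well separated levels in the fetal rat testis, a high one in some libraries and a low one in the others, within the same dose groups. They were chosen by their measured levels. The 17 libraries were sorted by log2(CPM + 0.5), where CPM is the count of a gene scaled to the same total of gene counts in every library, and the largest step between neighbouring libraries was taken. A gene was kept if that step was at least 2, which is 4-fold, if each side of it held 3 or more libraries, if at least 2 dose groups had libraries on both sides, if the upper side averaged at least 2 CPM and if the gene lay on an autosome. Of 30560 genes, 29029 lay on autosomes and 5 met every term. They were Zp2, RGD1359290, H3f3c, AABR07001902.1 and MGC116197. Because the levels themselves chose these genes, the size of their steps is a description and no test is attached to it. The glutathione transferase gene Gsta2 was left out by name, and its largest step was 1.86.

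Zp2 encodes a glycoprotein of the zona pellucida, the coat around the mammalian egg, and is known as a gene of growing oocytes. H3f3c is a copy of the genes for histone H3.3, the replacement histone that is laid down outside DNA replication. RGD1359290 is listed by RefSeq under the name Rpl17-ps16, a pseudogene of Rpl17, which encodes a protein of the large ribosomal subunit. Genes for ribosomal proteins and for H3.3 are known for having many near-identical copies in mammalian genomes, and reads from such copies cannot always be told apart. MGC116197 is a protein-coding gene in RefSeq, and no role is stated here for it or for AABR07001902.1.

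RNA came from testes of wild-type Sprague Dawley fetuses on gestational day 21. From day 17 to day 21 the pregnant dams were given dipentyl phthalate (DPeP), a phthalate ester plasticizer, in corn oil at 2.5 mL/kg by oral gavage. There were 3 libraries from dams given corn oil alone, 3 each at 1, 11 and 100 mg/kg/d and 5 at 300 mg/kg/d. A library held 1 testis or 2 testes of 1 litter, and which ones were pooled, or whether any litter gave more than 1 library, the sources used here do not say. Libraries are called by dose and by the number in their title.

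The promoter of MGC116197 is shown because it was the only promoter of the 5 genes matched in the RefSeq table (1 of 5), and because it has a close relative on the same chromosome. Each line gives 250 bases before the transcription start and 50 bases after it, in the RefSeq annotation of the build GRCr8, on the plus strand, at chr9:3108760-3109059 for MGC116197 and at chr9:6408845-6409144 for Spetex2l1. Capitals mark runs of at least 12 bases that both promoters hold.
MGC116197: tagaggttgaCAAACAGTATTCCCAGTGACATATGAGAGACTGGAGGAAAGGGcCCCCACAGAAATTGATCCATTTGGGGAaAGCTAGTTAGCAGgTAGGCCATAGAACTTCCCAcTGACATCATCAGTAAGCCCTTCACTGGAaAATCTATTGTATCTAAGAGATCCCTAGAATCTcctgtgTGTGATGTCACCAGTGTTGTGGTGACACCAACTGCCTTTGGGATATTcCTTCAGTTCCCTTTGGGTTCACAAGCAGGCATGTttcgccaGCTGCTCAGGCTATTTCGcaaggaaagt
Spetex2l1: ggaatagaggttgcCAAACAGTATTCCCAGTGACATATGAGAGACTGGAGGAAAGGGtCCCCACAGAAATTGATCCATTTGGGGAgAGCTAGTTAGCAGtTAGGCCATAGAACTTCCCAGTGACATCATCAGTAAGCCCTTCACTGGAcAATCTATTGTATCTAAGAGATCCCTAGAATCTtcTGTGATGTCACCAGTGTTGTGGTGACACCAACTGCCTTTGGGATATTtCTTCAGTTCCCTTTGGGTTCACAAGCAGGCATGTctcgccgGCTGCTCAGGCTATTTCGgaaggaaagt
In MGC116197 261 of the 300 bases were in such runs, and in Spetex2l1 262 were. The Spetex2l1 promoter held 56.1% of the distinct 12-base words of the MGC116197 promoter. Of the 33468 other promoters in the table, 17 held at least 25% of these words, and all 17 lay on chromosome 9. In 32963 promoters none of the words was found. MGC116197 thus starts from a sequence that recurs on its chromosome, and whether reads of related genes there were counted for it was not tested.

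Zp2 (ENSRNOG00000057989) lies on the minus strand of chromosome 1 at 174513511 to 174525288 of mRatBN7.2, with 2138 bases of exon in 18 intervals. It had 21.3, 44 and 24.3 CPM in corn oil libraries 01, 08 and 15, 40.4, 23.7 and 43.5 CPM at 1 mg/kg/d in libraries 02, 09 and 10, and 42.6, 44.8 and 0.373 CPM at 11 mg/kg/d in libraries 03, 16 and 17. At 100 mg/kg/d it had 0.228, 0.492 and 24.8 CPM in libraries 05, 18 and 19, and at 300 mg/kg/d 47.1, 0.862, 23.2, 50.5 and 36.8 CPM in libraries 06, 07, 13, 14 and 20. Libraries 17, 05, 18 and 07 stood apart at 4 to 15 reads each, where the other 13 libraries had 338 to 863 reads. The lowest of the 13 upper libraries lay 24.7-fold above the highest of the 4 lower ones, and this was the widest step of the 5 genes, 4.0 on the log2 scale. The groups overlapped: a low library occurred at 11, 100 and 300 mg/kg/d, next to libraries of the same dose on the upper side.

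The upper side of Zp2 was also cut at its own largest step, as any set of libraries can be. This step of 0.56 on the log2 scale parted 5 libraries at 21.3 to 24.8 CPM from 8 libraries at 36.8 to 50.5 CPM. The medians of these sets were 23.7 and 43.8 CPM, a ratio of 1.85. Both sets held libraries from corn oil, 1 and 300 mg/kg/d, and neither of the 2 upper libraries at 11 mg/kg/d was in the lower set. Per exon length, the median level of Zp2 on the upper side was 45.7 TPM (counts per base of exon, scaled to the same total in every library) and on the lower side 0.466 TPM.

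RGD1359290 (ENSRNOG00000027271) lies on the plus strand of chromosome 10 at 92373775 to 92389465, with 663 bases of exon in 5 intervals. It had 5.45, 165 and 113 CPM in corn oil libraries 01, 08 and 15, 70.1, 119 and 144 CPM at 1 mg/kg/d and 138, 6.47 and 150 CPM at 11 mg/kg/d, each in the library order used for Zp2. At 100 mg/kg/d it had 79.9, 8.32 and 117 CPM, and at 300 mg/kg/d 80.5, 80.9, 79.2, 73.2 and 138 CPM. Corn oil library 01, library 16 at 11 mg/kg/d and library 18 at 100 mg/kg/d were low, with 87 to 169 reads each, and all 5 libraries at 300 mg/kg/d were on the upper side. The step was 3.00 on the log2 scale, with an 8.43-fold gap between the sides. The upper side was cut at its own largest step as for Zp2, here 0.48 on the log2 scale. This gave 6 libraries at 70.1 to 80.9 CPM and 8 at 113 to 165 CPM, whose medians of 79.5 and 138 CPM had a ratio of 1.73.

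The low level of RGD1359290 was not zero. Per exon length it was the most abundant of the 5 genes on both sides, with a median of 412 TPM on the upper and 23.5 TPM on the lower side. Its exons lie within the span of Pitpnc1, a gene for a phosphatidylinositol transfer protein on the other strand, and the library kit does not mark strand, so reads of the pair cannot be told apart by strand. Pitpnc1 ranged between 5.98 and 15.5 CPM over the 17 libraries, with no step above 0.44.

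H3f3c (ENSRNOG00000032401) lies on the plus strand of chromosome 7 at 86501071 to 86502140 as 1 exon interval of 1070 bases, and RefSeq lists it as a pseudogene. It had 49.7, 53.3 and 64.0 CPM in corn oil libraries, 4.09, 3.15 and 49.3 CPM at 1 mg/kg/d and 4.2, 55.5 and 46.7 CPM at 11 mg/kg/d. The 100 mg/kg/d group had 7.81, 6.45 and 5.55 CPM, and at 300 mg/kg/d 5.33, 5.34, 47.3, 4.09 and 51.4 CPM. The 17 libraries divided into 8 high and 9 low ones, the most even division of the 5 genes, and the step was 2.51 on the log2 scale with a 5.98-fold gap. All 3 corn oil libraries were high and all 3 libraries at 100 mg/kg/d were low, while 1, 11 and 300 mg/kg/d each held libraries of both kinds. The upper side was tight, with its highest library 1.37 times its lowest. The low libraries still had 45 to 137 reads each, a median of 11.9 TPM against 115 TPM in the high ones, so the label of an off level describes H3f3c and RGD1359290 less well than Zp2.

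AABR07001902.1 (ENSRNOG00000042547) lies on the plus strand of chromosome 1 at 61493819 to 61494744, with 531 bases of exon in 2 intervals. It had 0, 15.1 and 9.45 CPM in corn oil libraries, 3.26, 0.140 and 0.190 CPM at 1 mg/kg/d and 0.365, 0 and 0.213 CPM at 11 mg/kg/d. The libraries at 100 mg/kg/d had 26.8, 0.344 and 0.203 CPM, and at 300 mg/kg/d 0.0606, 0.115, 0.174, 0.175 and 0.288 CPM. High libraries were the exception for this gene: corn oil 08 and 15, library 02 at 1 mg/kg/d and library 05 at 100 mg/kg/d. The other 13 libraries had at most 7 reads and 2 of them had none. The step was 2.12 on the log2 scale, and a further step of 1.41 set library 02 below the other high libraries.

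MGC116197 (ENSRNOG00000033341) lies on the plus strand of chromosome 9 at 2723738 to 2731915 of mRatBN7.2, with 1482 bases of exon in 5 intervals. It had 0.188, 6.47 and 0.0610 CPM in corn oil libraries, 7.09, 5.67 and 3.61 CPM at 1 mg/kg/d and 4.44, 0.335 and 11.4 CPM at 11 mg/kg/d. Levels at 100 mg/kg/d were 7.35, 28.3 and 9.00 CPM, and at 300 mg/kg/d 10.8, 12, 0, 0.351 and 0.461 CPM. The 11 upper libraries held 57 to 575 reads and the 6 lower ones at most 8. Here 1 and 100 mg/kg/d were on the upper side in all 3 libraries each, and the corn oil, 11 and 300 mg/kg/d groups held libraries of both kinds. The step was 2.10 on the log2 scale, and library 18 at 100 mg/kg/d stood 1.20 above the next upper library.

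**Figure D1:**
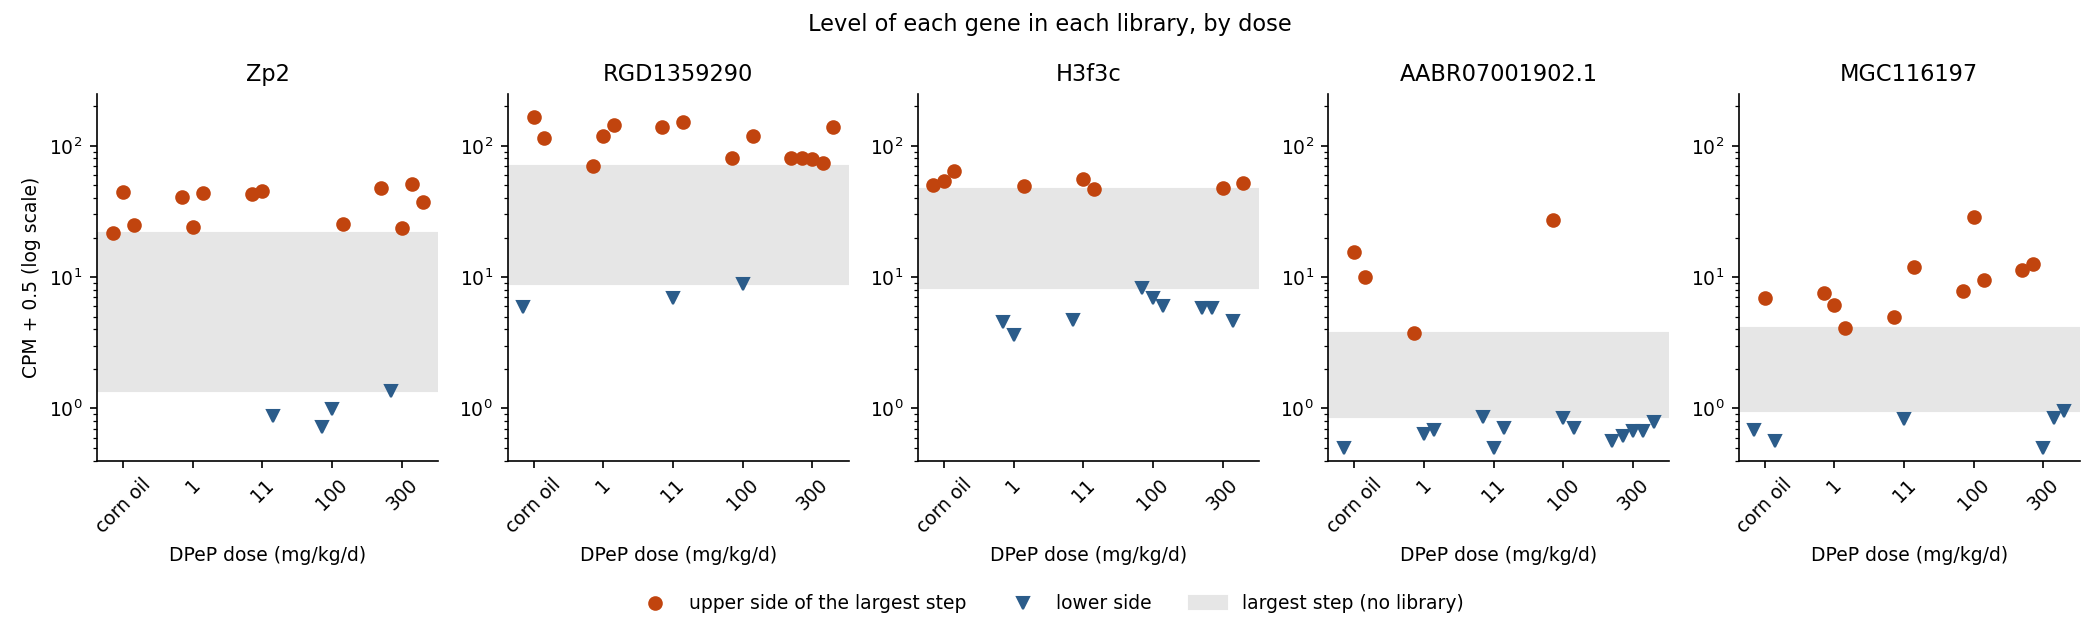
Level of each of the 5 genes in each library as CPM + 0.5 on a log axis, by dose group from corn oil to 300 mg/kg/d. Circles are libraries above the largest step, triangles are libraries below it, and the grey band is the step, which no library enters; for Zp2 it runs between 0.862 and 21.3 CPM.

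The plot of sorted levels shows the shapes side by side. In Zp2 and RGD1359290 the upper side is described as a middle set and a high set. These sets were parted at the largest step of the upper side, after the values were seen. That step was 0.56 for Zp2 and 0.48 for RGD1359290, smaller than the 1.41 for AABR07001902.1 and the 1.20 for MGC116197. In each of these other genes it set 1 library apart. Among the 4 low libraries of Zp2, which hold few reads, the largest step was 0.46. H3f3c had 2 flat sets, and AABR07001902.1 and MGC116197 had a flat low set and a sloping upper one. For the last pair the highest upper library was 8.22 and 7.83 times the lowest, against 2.37 for Zp2 and 2.36 for RGD1359290.

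**Figure D2:**
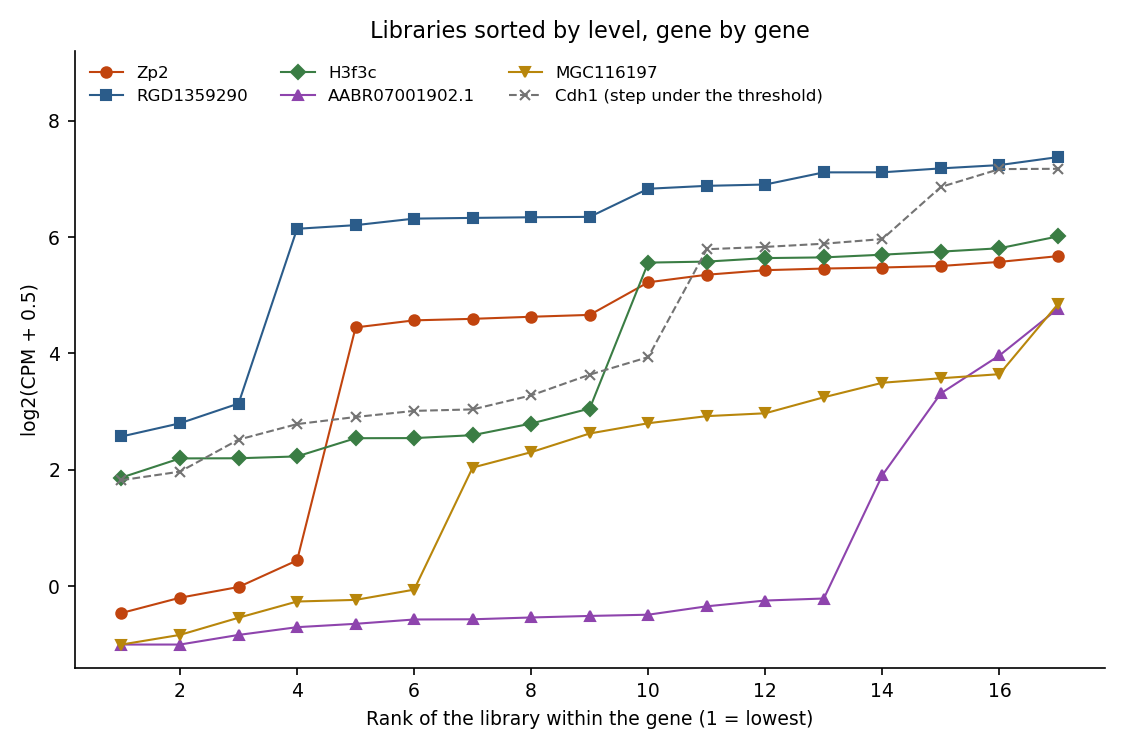
Log2(CPM + 0.5) of the 17 libraries, sorted from lowest to highest within each gene, for the 5 genes and for Cdh1, whose largest step was 1.85. The largest steps within the upper side of Zp2 and RGD1359290 were 0.56 and 0.48.

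It was the rule that set the 5 genes apart by the size of their step. Of the autosomal genes, 2790 met every term except the size of the step, and steps near the threshold were rare among them: the median step was 0.16, the 90th percentile was 0.30 and 2768 genes stayed under 1. The term for libraries on each side mattered most, since 12 genes of any chromosome had a step of at least 2 and 7 of these had fewer than 3 libraries on a side. The terms for chromosome, dose groups and upper level then removed no further gene.

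**Figure D3:**
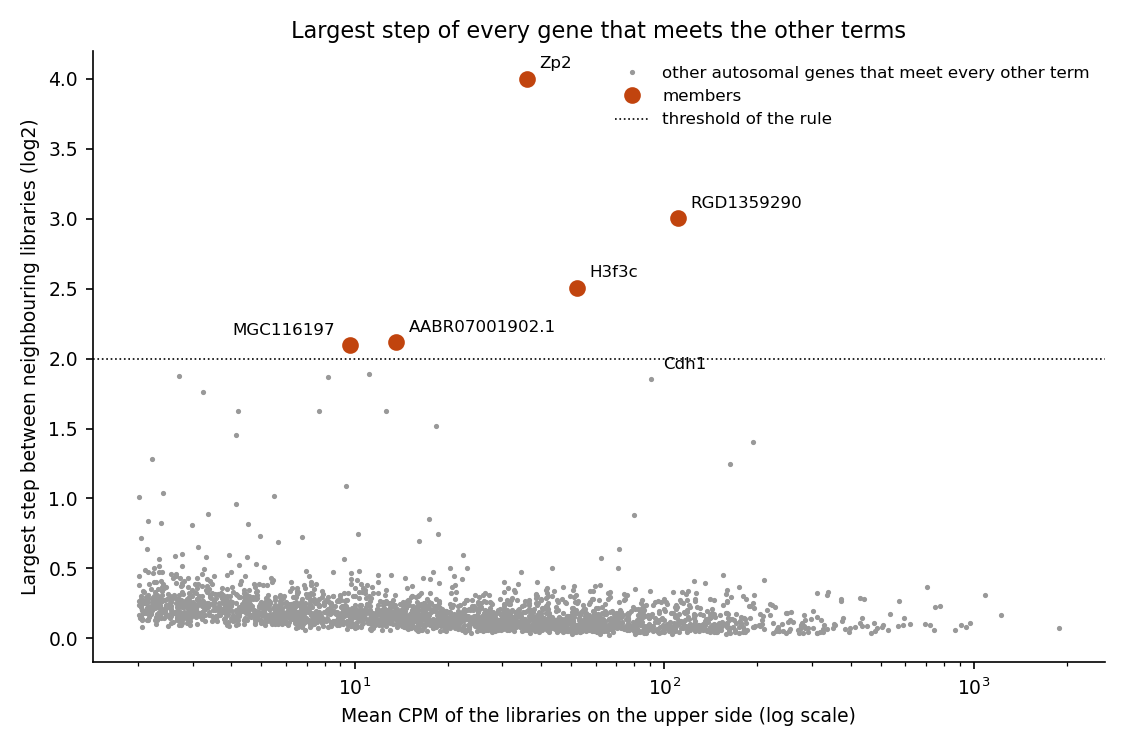
Largest step on the log2 scale against the mean CPM of the libraries above it (log axis), for autosomal genes that met every other term. The 5 genes lie between 2.10 and 4.0, the dotted line is the threshold of 2, and 2768 of 2790 genes lie under 1.

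The threshold cuts through a short tail. Just inside it were H3f3c at 2.51, AABR07001902.1 at 2.12 and MGC116197 at 2.10. Just outside were AABR07050084.1 at 1.89, AABR07044362.1 at 1.88 and AABR07001512.1 at 1.87, with the E-cadherin gene Cdh1 close behind. AABR07050084.1 (chromosome 5, 144505211 to 144505346) had 11 libraries at 6.83 to 14.8 CPM and 6 at 0.439 to 1.48 CPM. AABR07044362.1 (chromosome 20, 2630622 to 2634751) had 4 libraries at 2.19 to 3.19 CPM and 13 at 0 to 0.234 CPM. AABR07001512.1 (chromosome 1, 48369044 to 48369595) had 14 libraries at 3.18 to 13.5 CPM and 3 at 0.280 to 0.507 CPM. The step sizes ran on closely below the threshold, and the count of 5 depends on where it stands.

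Cdh1 encodes the adhesion protein that joins epithelial cells. It lies on chromosome 19 at 34492371 to 34561775 and had 143, 116 and 56.4 CPM in corn oil libraries, 5.24, 144 and 6.40 CPM at 1 mg/kg/d and 62.0, 58.6 and 3.04 CPM at 11 mg/kg/d. Its levels at 100 mg/kg/d were 3.42, 7.58 and 54.9 CPM, and at 300 mg/kg/d 9.21, 14.8, 7.01, 7.72 and 11.9 CPM. It had 7 upper libraries at 54.9 to 144 CPM and 10 lower ones at 3.04 to 14.8 CPM. All 5 libraries at 300 mg/kg/d were low and all 3 corn oil libraries were high. Cdh1 was picked with its levels in these data known, so this separation and the test that follows are given as values only. The share of all genes separated in this way was not counted. The log2 fold change at 300 mg/kg/d against corn oil was -3.40 (SE 0.90), with an adjusted p of 0.0499 in edgeR's quasi-likelihood test with Benjamini-Hochberg adjustment. That call rested on every library of both groups: leaving out any 1 of the 8 gave an adjusted p of 0.0810 to 0.145 in the same test, and the other alternatives gave 1.84e-06 to 0.0700. The log2 fold change stayed between -3.70 and -3.11 without 1 library, so the calls were lost with little change of the difference.

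Side by side, the 5 genes did not divide the libraries in the same way. Of 32 possible combinations of sides, 12 occurred in the 17 libraries. Library 09 at 1, 03 at 11, 19 at 100 and 06 at 300 mg/kg/d shared 1 combination, high for Zp2, RGD1359290 and MGC116197 and low for the other two. Corn oil library 08 was high for all 5 genes, and library 18 at 100 mg/kg/d was high for MGC116197 alone. Pairs of genes were on the same side in 4 libraries (H3f3c and MGC116197) to 12 libraries (Zp2 with RGD1359290, and RGD1359290 with MGC116197). Zp2 and AABR07001902.1 lie on the same chromosome, 113 Mb apart, and were on the same side in 6 of 17 libraries.

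Outside the 5 genes, a search for genes with a step of at least 1 at exactly the same division of the libraries gave 1 case. ENSRNOG00000064783 lies on chromosome 9 at 2825056 to 2833133, 93.1 kb from MGC116197. It had 3.55 to 18.8 CPM in the 11 libraries where MGC116197 was high and 0.223 to 0.815 CPM in the 6 where MGC116197 was low. Its step was 1.62. Whether the reads of this pair come from 1 gene or from both cannot be read from the counts.

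The nearest expressed genes on the chromosome had no step above 0.84. Of the 2790 autosomal genes that met every other term, 2768 stayed under 1, but the neighbours were not held to those terms. A neighbour was the closest gene on each side with a mean of at least 1 CPM, and an overlapping gene was added, which gave 11 neighbours. Next to Zp2, which varied 221-fold over the libraries, Tmem159 at a distance of 10.5 kb ranged between 36.5 and 60.6 CPM and Anks4b at 22.2 kb between 0.671 and 1.88 CPM. Next to H3f3c, which varied 20.3-fold, the cohesion gene Dscc1 at 2.86 kb ranged between 18.7 and 34.1 CPM and Deptor, an inhibitor of mTOR, at 12.8 kb between 19.7 and 37.0 CPM. The flanks of RGD1359290, which varied 30.3-fold, were as even: Nol11 ranged between 56.8 and 99.8 CPM and the proteasome subunit gene Psmd12 between 123 and 206 CPM.

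The zinc finger genes beside AABR07001902.1 were Zfp51 at 7.48 to 12.9 CPM and Zfp229 at 28.9 to 48.1 CPM. MGC116197 was the exception to these even flanks, with ENSRNOG00000064862 at 0 to 5.36 CPM and ENSRNOG00000067046 at 0.610 to 4.05 CPM, whose steps of 0.84 and 0.76 were the largest of the 11 neighbours. ENSRNOG00000064862 had 0 to 0.223 CPM in the 6 lower libraries of MGC116197 and 0.190 to 5.36 CPM in the 11 upper ones, where library 10 at 1 mg/kg/d alone lay within the lower range. Its highest library, 18 at 100 mg/kg/d, was also the highest of MGC116197. Over the neighbours with no library at 0, the highest library was 1.66 to 6.63 times the lowest.

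**Figure D4:**
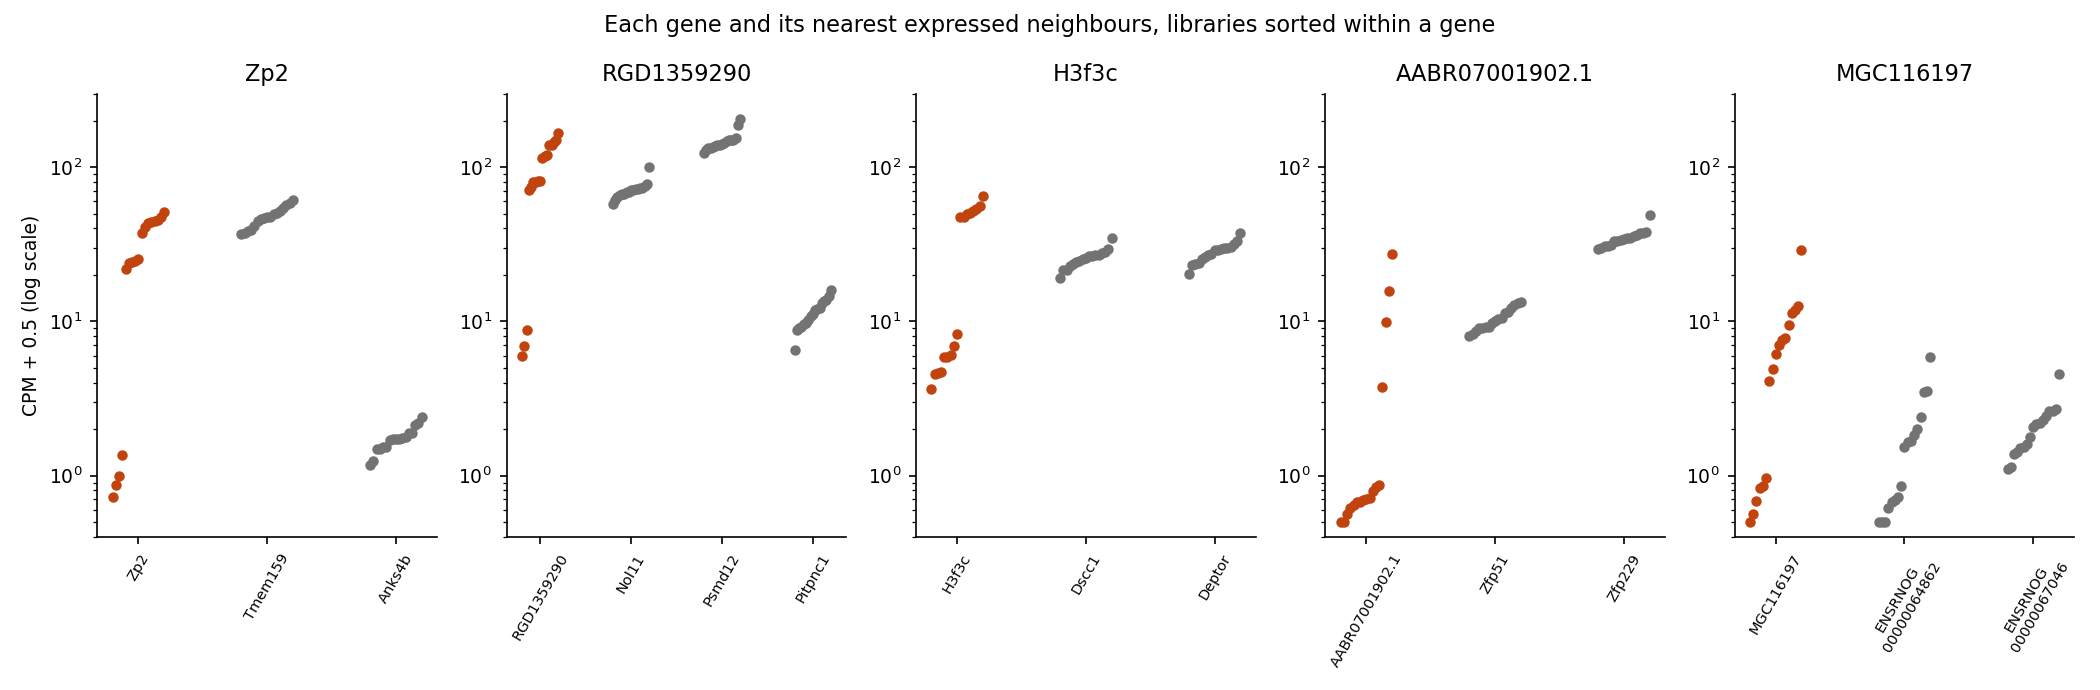
CPM + 0.5 on a log axis for each of the 5 genes (orange) and its nearest expressed neighbours (grey), 17 libraries sorted from lowest to highest within each gene. The orange genes were chosen for a step of at least 2, and the neighbours run without a step above 0.84, as do most autosomal genes that met every other term.

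Genes related by function or sequence were read for the same split. Per exon length, the zona pellucida genes Zp1, Zp3 and Zp4 had 0 to 0.596, 0.268 to 4.50 and 0 to 0.479 TPM over the 17 libraries. Zp2 had 24.3 to 56.8 TPM in its 13 upper libraries and 0.219 to 0.968 TPM in the 4 lower ones, so its upper side lay above every library of the other zona genes. Figla, the oocyte transcription factor that drives zona genes in mice, had 0.0627 to 0.927 CPM. None of the 16 other oocyte genes of the list had a step of at least 1, and the largest was 0.68. Of the 2790 autosomal genes that met every other term, 2768 had a step under 1, but the genes of the list were not held to those terms. Of the 17 oocyte genes matched, 8 averaged 1 CPM or more, and a gene that stays under 0.5 CPM cannot reach a step of 1. Nothing is therefore read from this count. Of the 11 oocyte genes tested at 300 mg/kg/d against corn oil, 0 were called by edgeR's quasi-likelihood test and 0 by DESeq2, and 1 had an unadjusted p under 0.05. Over all 18005 genes tested, 432 (2.4%) were called by edgeR and 735 by DESeq2, and 2391 had an unadjusted p under 0.05 in edgeR. The median log2 fold change of the oocyte genes was 0.19, beside 0.01 over all genes tested.

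The genes related to H3f3c were more abundant per exon length. The symbol H3f3a is given to ENSRNOG00000006532, with 1937 to 2621 TPM, and to ENSRNOG00000003220, with 532 to 874 TPM, where H3f3c had at most 137 TPM. Their largest steps on the log2 CPM scale were 0.27 and 0.41. None of the 10 other genes of the histone list had a step of at least 1, and 0 of 11 were called at 300 mg/kg/d by edgeR's quasi-likelihood test or by DESeq2, with 0 at an unadjusted p under 0.05 and a median log2 fold change of -0.02. Beside Cdh1, none of the 11 other epithelial genes had a step of at least 1. Of the 2790 autosomal genes that met every other term, 2768 stayed under 1, but the genes of both lists were not held to those terms. At 300 mg/kg/d edgeR's quasi-likelihood test called 1 of the 12 tested epithelial genes, Cdh1, and DESeq2 called 2, and 6 had an unadjusted p under 0.05 in edgeR, where 2.4% of all genes were called and 2391 of 18005 were under 0.05. The median log2 fold change of the 12 was 0.38.

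Rpl17 (ENSRNOG00000018680), the gene of which RGD1359290 is listed as a pseudogene, ranged between 464 and 1038 CPM with no step above 0.38. Where RGD1359290 was low, in 3 libraries, Rpl17 had 700 to 1038 CPM. In the 6 libraries with RGD1359290 at 70.1 to 80.9 CPM it had 629 to 787 CPM, and in the 8 with RGD1359290 at 113 to 165 CPM it had 464 to 614 CPM. The 8 libraries of the top set thus all lay below the other 9 for Rpl17. The sums of both genes overlapped between the sets, at 705 to 1046, 699 to 867 and 583 to 745 CPM from the low set to the top set. The highest sum was that of library 18 at 100 mg/kg/d, and the other 2 libraries of the low set, at 705 and 801 CPM, lay within the range of the middle set. Reads that fit both genes could be counted for either, and the part of this in the values was not tested.

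**Figure D5:**
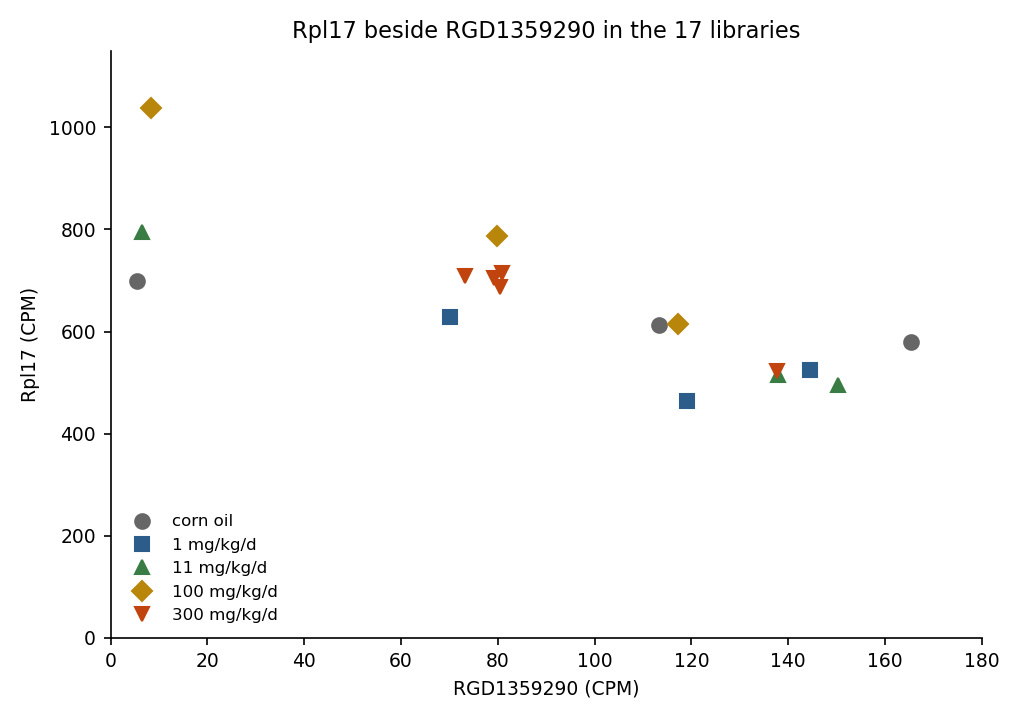
Rpl17 against RGD1359290 in CPM, 1 point per library, with the dose group as colour and shape. The 8 libraries at 113 to 165 CPM of RGD1359290 have 464 to 614 CPM of Rpl17, and the 9 others have 629 to 1038 CPM.

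Each dose was set against corn oil in 1 fit of all genes, and since the rule used these same levels the member counts are given as values only. At 300 mg/kg/d 2.4% of 18005 tested genes were called, and 1 of the 5 genes was, by edgeR's quasi-likelihood test and also by DESeq2. This was AABR07001902.1, at 0.0606 to 0.288 CPM in libraries at 300 mg/kg/d and 0 to 15.1 CPM in corn oil libraries, with a log2 fold change of -5.62 (SE 1.42) and an adjusted p of 0.0381 in edgeR's quasi-likelihood test. The groups overlapped, since corn oil library 01 had no read. Leaving out corn oil library 08 or 15, or any 1 of the 5 libraries of the top dose, ended the call, and so did a term for the sample code held by the titles. Over the alternatives in which the gene was tested, its adjusted p was 0.00183 to 0.246.

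The other genes at 300 mg/kg/d had log2 fold changes of 0.06 for Zp2 (SE 0.94), -0.10 for RGD1359290 (SE 0.77), -1.32 for H3f3c (SE 0.81) and 1.01 for MGC116197 (SE 1.17), all with edgeR adjusted p of 0.535 or more. For each of these 4 genes, at least 1 of the compared groups held libraries on both sides of the step. Zp2 averaged 31.7 ± 20.2 CPM (SD, n = 5) at 300 mg/kg/d and 29.9 ± 12.3 CPM (SD, n = 3) in corn oil libraries, so both means fall in the gap between its middle and high sets.

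At 100 mg/kg/d 1.52% of the genes were called and 0 of the 5, by edgeR's quasi-likelihood test and by DESeq2; 2 had an unadjusted p under 0.05 in edgeR and 1 in DESeq2. Over all genes at this dose, 3458 of 18005 had an unadjusted p under 0.05 in edgeR, and DESeq2 called 904. H3f3c had the smallest p of the 5 genes, with a log2 fold change of -3.03 (SE 1.04) and an adjusted p of 0.132 in edgeR's quasi-likelihood test. It averaged 6.60 ± 1.14 CPM at 100 mg/kg/d and 55.7 ± 7.41 CPM in corn oil libraries (SD, n = 3 each), and these groups did not overlap. Nothing is read from this separation, since H3f3c was chosen for a gap between its libraries. The share of all genes without overlap was not counted. Low libraries of H3f3c also occurred at 1, 11 and 300 mg/kg/d. At 11 and at 1 mg/kg/d 0% of the genes were called in edgeR, 633 and 891 had an unadjusted p under 0.05, and DESeq2 called 24 and 0. Of the 5 genes, 0 were called at either dose by either tool, 1 had an unadjusted p under 0.05 in edgeR at each, and in DESeq2 1 had at 11 mg/kg/d and 0 at 1 mg/kg/d.

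The libraries carried 14282274 to 20323488 gene counts. The titles also hold a sample code with 3 values, on 2, 8 and 7 libraries, and the sources used here do not say what it stands for. All 3 low libraries of RGD1359290 had the code that 7 libraries carry, and each of the other genes had low libraries under that code and under the one that 8 libraries carry. Libraries 05 and 18 at 100 mg/kg/d stood apart by 9.05% and 7.76% of their counts from mitochondrial genes, against 4.35% to 6.16% in the other 15. Both were low for Zp2 and H3f3c; without both, Zp2 and RGD1359290 no longer had 3 low libraries.

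The Leydig cell, Sertoli cell and Y-linked markers read were present in every library, and some liver genes stood high in 2 libraries each. The summed level of 8 Leydig cell genes was 1471 to 6863 CPM and that of 9 Sertoli cell genes 2458 to 5177 CPM, and the Y-linked gene Kdm5d had 74.8 to 101 CPM in every library. At 300 mg/kg/d, edgeR's quasi-likelihood test called all 8 Leydig cell genes lower, 4 of 9 Sertoli cell genes higher and 1 lower. Among markers of other cells, it called 1 of 16 gonocyte genes and 1 of 8 mesonephric duct genes higher, 1 of 14 macrophage genes lower, and 0 of 12 red blood cell, 0 of 11 liver and 0 of 8 endothelial genes, where 2.4% of all genes were called. At an unadjusted p under 0.05 in edgeR there were 7 gonocyte, 2 mesonephric, 1 macrophage, 0 red blood cell, 1 liver and 2 endothelial genes, beside 2391 of all 18005. DESeq2 called 1 gene each of the gonocyte, mesonephric, macrophage and liver lists and 0 of the red blood cell and endothelial lists. The liver genes Fga, Alb and Apoh each had 2 libraries above their largest step, of 2.59, 2.36 and 2.02. Alb reached 91.7 CPM, against a median of 0.684 CPM. The liver list summed to 109 to 138 CPM in corn oil libraries, and to 122 to 226, 112 to 153, 124 to 131 and 152 to 355 CPM at 1, 11, 100 and 300 mg/kg/d. The called mesonephric gene was Lcn2, with a log2 fold change of 2.01 (SE 0.29). It had 11.5 to 81.9 CPM over the 17 libraries and the highest median of that list, 26.8 CPM. The list summed to 68.9 to 96.9 CPM at 300 mg/kg/d and to 24.2 to 37.2 CPM in corn oil libraries. The next gene of the list by level, Wfdc2, had 7.28 to 11.5 CPM and a log2 fold change of 0.25 (SE 0.17). In bulk tissue, fewer cells of a type and less RNA per cell cannot be told apart. The part of cell makeup in the levels of the 5 genes was not tested.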

How the data were processed

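Polyadenylated RNA of 17 fetal testis libraries was sequenced. Per the submitters' processing notes, Trimmomatic 0.36, STAR 2.5.2b, featureCounts of Subread 1.5.2, DESeq2 and limma were used, with the build mRatBN7.2; the sources used here do not give the gene model release or the strand setting of counting. The deposited files hold the authors' raw read count per gene, per the file headers, and no count differed between these and the series table. The 92 ERCC spike-in rows were left out. Other deposited tables (TPM, log2) were not analysed here. CPM and TPM were computed here from the counts and exon lengths.

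The members and lists were chosen with earlier results of these data known. All 5 members are named, with their values, their nearest neighbours and the 3 genes just inside and just outside the threshold. All 15 lists (218 entries) also covered adrenal cortex genes (2 of 3 tested lower at 300 mg/kg/d), glutathione transferases (2 of 21 lower), RT1 genes (0 of 20, with 0 at an unadjusted p under 0.05) and sex check genes (0 of 4, with 1), both 0 in DESeq2. Doses were compared with edgeR 4.0.16 in R 4.3.3 (quasi-likelihood test, TMM, filterByExpr by dose, 1 fit of 17 libraries, Benjamini-Hochberg over 18005 genes, threshold 0.05); all 5 members passed the filter. DESeq2 1.42.0 was an alternative. The p-values set the difference between groups against the spread between these libraries, and whether libraries share a litter is not known. Near 0, a count of a few reads carries a large counting error.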

Additional observations from a re-analysis of the deposited data

Results flagged for a closer look

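In the 300 mg/kg/d group, library 20 had 138 CPM of RGD1359290, against 73.2 to 80.9 CPM in the other 4, and was far from them relative to the range of the group. The same library was far from the others for Rpl17, with 522 CPM against 687 to 715 CPM. For RGD1359290 it lies in the top set of 8 libraries, which holds libraries of all 5 dose groups. For genes not chosen by their gaps, such a distance would appear by chance in about 1 in 20 groups, and 14 pairs of gene and group were checked. RGD1359290 was chosen for a gap between its libraries, so this rate does not apply to it. Whether both values have 1 source was not tested.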

How the results depend on the processing

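In place of 5 genes, 3 met the rule with a pseudocount of 1 (Zp2, RGD1359290, H3f3c), 9 with 0.25 and 2 with a step of at least 3 (Zp2, RGD1359290). With a step of at least 1.5 there were 14, all 5 members among them. The other scalings and upper levels tried gave 5 genes. Leaving out 1 library gave 4 to 6 genes, and RGD1359290 was lost without corn oil library 01, library 16 or library 18. Without both libraries 05 and 18, chosen after seeing the data, 4 genes met the rule, AABR07050084.1 among them, and 0 were called at 100 mg/kg/d. The count of members called at 300 mg/kg/d was 0 with the sample code as a term, 0 in a fit of the 2 groups alone, where AABR07001902.1 did not pass the filter, and 0 to 1 without 1 library. At 100 mg/kg/d it was 1 (H3f3c) with no filter and 1 (H3f3c) in a fit of the 2 groups alone, and 0 to 1 without 1 library: without library 19 at 100 mg/kg/d, 4250 genes were called, Zp2 among them. At 11 and 1 mg/kg/d it was 0 in every alternative run. With the sample code as a term, the log2 fold change of RGD1359290 at 300 mg/kg/d was 1.46 (adjusted p 0.583, edgeR), and without 1 library it was -0.65 to 0.57; that of Zp2 was -0.18 to 0.44. For MGC116197, 1.01 in the fit of all libraries, it was 0.31 to 5.14 without 1 library, the highest without corn oil library 08, and 2.21 with the sample code as a term. The cause was not tested. No paired analysis was run, since the sources used here do not link libraries of different doses as pairs. The replicate numbers are unique to each library. The sample code crosses the dose groups and was tried as a term. Levels under about 1 CPM rest on few reads.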

Other observations

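A pair of short genes on chromosome 6, ENSRNOG00000066459 (128658508 to 128658597) and ENSRNOG00000066457 (128648708 to 128648796), divided the 17 libraries identically, 7 high and 10 low, with steps of 1.76 and 1.62. In the 7 high libraries the first had 2.43 to 4.19 CPM and the second 2.55 to 5.55 CPM, and in the 10 low ones both had 0.490 CPM or less. Asb15 on chromosome 4 had 11 libraries at 7.09 to 22.4 CPM and 6 at 0.752 to 1.96 CPM, and Lgals5, a galectin gene on chromosome 10, had 14 libraries at 13.5 to 30.0 CPM and 3 at 2.92 to 4.39 CPM. These genes were singled out after their values were seen.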
